A study of Mus musculus with 10 samples.

Results

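The metallothioneins Mt1 and Mt2 and 8 antioxidant enzymes, Sod1, Sod2, Cat, Gpx1, Txnrd1, Gclc, Nqo1 and Hmox1, were followed in the gastrocnemius (GAS) of diet-induced obese (DIO) mice given an antisense oligonucleotide (ASO) against miR-22. The genes were chosen by symbol, and all 10 were found among the 21160 genes of the count table and passed the filter on low counts. All animals were male wild-type mice, C57BL/6J in the labels and C57BL/6JBomTac in the methods, that were put on the high-fat diet D12492i at 9 weeks of age and kept on it for 9 weeks before treatment and, according to the methods, through it. The ASO group, labelled RES-010, was injected under the skin with 10 mg/kg anti-miR-22 ASO every week for 14 weeks, and the control group (CTRL) received saline for the same time. Each group has 5 libraries of polyA RNA, described as taken at 30 weeks of age, although the stated steps add up to 32 weeks. The controls received no oligonucleotide, so an effect of any oligonucleotide and an effect of miR-22 inhibition cannot be told apart. The labels number the libraries and do not say that each is a separate mouse, so p-values measure the spread between libraries.

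Superoxide leaking from mitochondria and from oxidases is converted to hydrogen peroxide by the superoxide dismutases, and the peroxide is removed by catalase, glutathione peroxidases and peroxiredoxins. Glutathione and thioredoxin supply the electrons for the peroxidases, and thioredoxin reductase and the enzymes of glutathione synthesis keep these carriers in supply. Metallothioneins are small cysteine-rich proteins that bind zinc and copper, and their genes are induced through the metal-responsive factor MTF1 and by glucocorticoids. Many of the other genes are classical targets of the factor NRF2 (gene Nfe2l2), which KEAP1 and the CUL3 ubiquitin ligase hold at a low level until cells meet oxidants. In contracting muscle these systems are active at rest and respond to exercise, overfeeding and disuse.

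The sequences in view are the miRNA that the ASO targets, its one seed match among these genes and the metal response elements of the metallothionein promoters. miR-22-3p from RefSeq (GRCm38.p6 table) is shown 5′ to 3′ with its seed, bases 2 to 8, in capitals, and its reverse complement as DNA is GGCAGCT.
mmu-miR-22-3p: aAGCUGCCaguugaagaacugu
Of the 10 genes, 1 holds GGCAGCT in its canonical 3′UTR (GENCODE M39, GRCm39), against 1388 of 7813 tested genes (17.8%), whose median 3′UTR is 1444 bp long. The match is in Sod2, which encodes the mitochondrial manganese superoxide dismutase, at position 2196 of a 3′UTR of 4966 bp. It is shown in capitals, at chr17:13236251-13236257 on the plus strand.
Sod2 3′UTR: agtcatacaagcacaGGCAGCTtttatatg
The match lies outside the segments on which Sod2 was counted.

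Promoters from 250 bases before to 50 bases after the start (RefSeq, GRCm38.p6) were found for 8 of the 10 genes, and Hmox1 and Gclc were not among them. The core of the metal response element was searched on both strands as TGCACNC or TGCGCNC. It was present 3 times in the Mt1 promoter and 4 times in the Mt2 promoter, and 0 times in those of Cat, Gpx1, Nqo1, Sod1, Sod2 and Txnrd1. Of 32851 promoters, 25.7% held at least 1 match, 1.97% at least 3 and 0.517% at least 4. The matches are printed in capitals on the strand of the gene, which is the plus strand for both, and those on the opposite strand read as GNGTGCA or GNGCGCA.
Mt1, chr8:94179058-94179080: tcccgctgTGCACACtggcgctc
Mt1, chr8:94179083-94179105: gggagctcTGCACTCcgcccgaa
Mt1, chr8:94179101-94179123: ccgaaaagTGCGCTCggctctgc
Mt2, chr8:94172387-94172409: atcgcctcTGCACCCggcccctc
Mt2, chr8:94172482-94172504: agacccttTGCGCTCagctcctt
Mt2, chr8:94172560-94172582: gggagggcGTGTGCAggctctgt
Mt2, chr8:94172614-94172636: ttcgggtcGTGCGCAggcccagg
The antioxidant response element core TGACNNNGC, the site to which NRF2 with its small MAF partners binds, was found once on either strand in the promoters of Mt2, Sod1 and 1 of the 3 Txnrd1 starts, and 12.4% of all promoters held it. These matches describe letters only, and binding was not measured.

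The libraries held between 1606909 and 2632560 counts, and each ASO library was deeper than each CTRL library. Reads had been counted only on the last 500 bp of the 3′UTRs, and in these genes segments without bases of their own held 0 counts, so a gene's level depends on how many bases were its own. Levels are CPM (counts scaled to a common library size after TMM normalization), with SDs over 5 libraries, and genes were tested with edgeR's quasi-likelihood test at an adjusted p-value of 0.05. The muscle markers were abundant in every library, with Acta1, skeletal actin, at 54385 to 68515 CPM in ASO and 25342 to 49128 CPM in CTRL. Ckm, muscle creatine kinase, was at 36666 ± 8563 CPM against 19247 ± 4623 (log2 fold change 0.93, adjusted p = 0.011), and of 9 tested fiber markers 5 were higher and 0 lower with the ASO, against 11.7% higher and 17.5% lower of all 7819 genes tested. Of the Ckm counts 97.6% lay at least 1000 bp upstream of its most distal segment. Mb, myoglobin, is listed at 0 in all 10 libraries, and its segments have 4 bases of their own. CTRL library 3 stood apart in its adipocyte markers, which summed to 14680 CPM there, to 909 to 2560 CPM in the other CTRL libraries and to 778 to 3998 CPM in ASO. Its fibroblast markers were also the highest, at 1834 CPM against 435 to 866 in the other CTRL libraries and 174 to 831 in ASO, and its fiber markers the lowest of all libraries, at 60429 CPM. Of the markers of other cells, 0 of 9 tested adipocyte, 0 of 8 endothelial and 0 of 4 red blood cell markers were called. Of 8 macrophage markers 2 were lower (Mrc1, −1.51, and C1qc, −1.61 on the log2 scale), as was 1 of 5 fibroblast markers (Lum, −1.72), beside the 17.5% of all genes that were lower. The groups were apart in Lum but overlapped in Mrc1 and C1qc, which varied widely over the CTRL libraries (56.4 ± 45.7 and 104 ± 81.0 CPM). The other 6 macrophage markers did not pass the threshold, among them Cd68 (log2 fold change 0.26, adjusted p = 0.79). The median log2 fold change of the 8 was −1.08. In whole muscle, fewer cells of a type and less RNA per cell cannot be told apart.

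Among the 10 genes, Sod1 and Sod2 were higher with the ASO, Txnrd1 was lower, and 7 did not pass the threshold. The 3 called genes are 30.0% of the 10, and 29.2% of the 7819 genes tested were called, 11.7% higher and 17.5% lower. The same 3 genes were the ones whose groups did not overlap, against 21.4% of all genes tested, 7.98% with all ASO libraries above and 13.4% with all below. The median log2 fold change of the 10 genes was 0.39, with 6 positive and 4 negative values, and that of all genes tested was −0.03. The genes thus did not move in one direction.

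**Figure D1:**
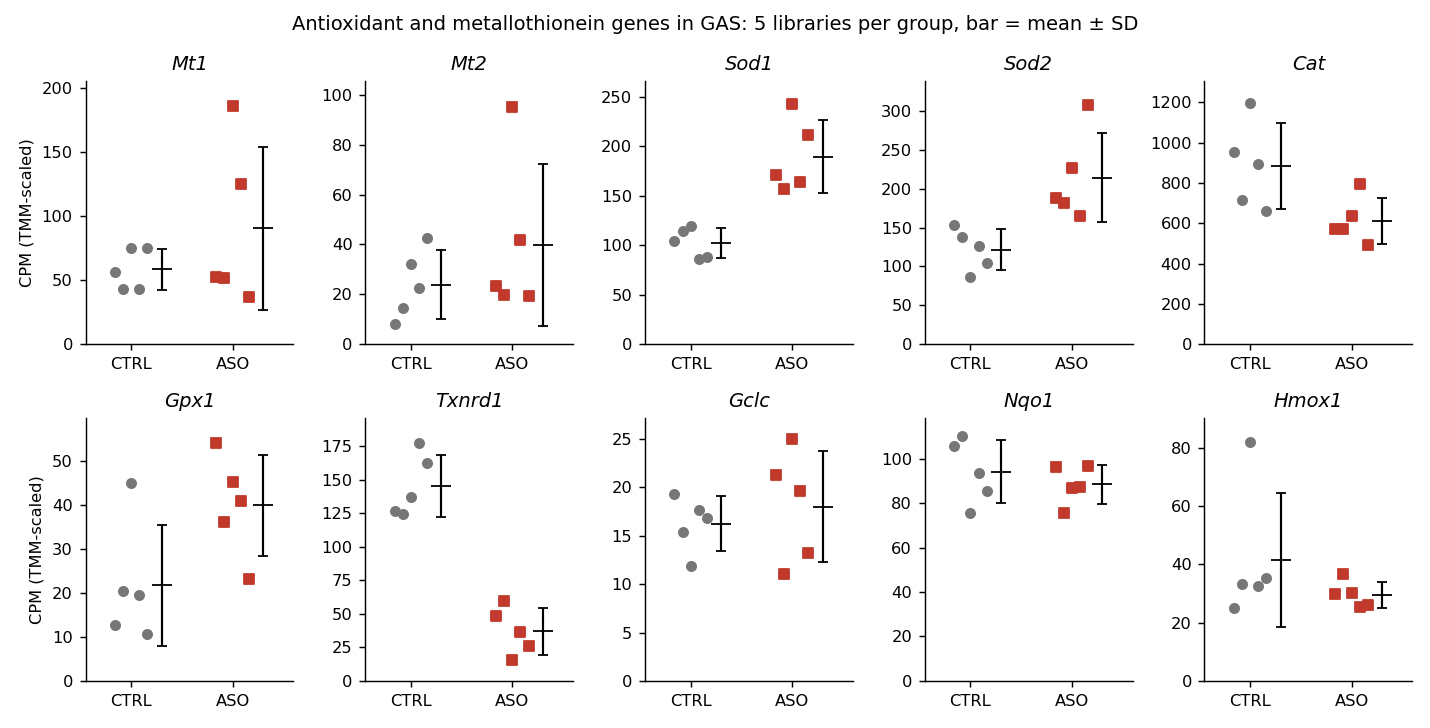
CPM of the 10 genes in the 5 CTRL libraries (grey circles) and the 5 ASO libraries (red squares), with the mean and SD beside each group and each vertical axis starting at 0. The groups are apart in Sod1, Sod2 and Txnrd1, and single high libraries are visible for Mt1 and Mt2 in ASO and for Hmox1 and Gpx1 in CTRL.

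Sod1 encodes the copper- and zinc-dependent superoxide dismutase of the cytosol. It was at 171, 157, 243, 164 and 212 CPM in ASO libraries 1 to 5 and at 104, 115, 120, 86.1 and 88.1 CPM in CTRL libraries 1 to 5. Every ASO library was above every CTRL library. The means were 190 ± 36.6 and 103 ± 15.1 CPM (n = 5 each), a log2 fold change of 0.88 ± 0.16 (SE, adjusted p = 0.0019). Its counts, 146 to 575 per library, came from 1 segment of 72 bp (transcript ENSMUST00000023707, chr16:90023146-90023217, plus strand, GRCm39), which lies in the 3′UTR. In GENCODE M39 that 3′UTR is 4515 bp long and the gene ends at position 90027657, so the segment is not at its end. The part of segment position in the Sod1 value was not tested. All 72 bp also lie in an exon of Scaf4 on the opposite strand. The counting parameters listed by the study name no strand option, so reads of the 2 genes may not have been kept apart. Scaf4 is itself listed at 0 with 6 bases of its own, which gives no measure of its level.

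Sod2, the manganese enzyme of the mitochondrial matrix, was at 189, 182, 227, 165 and 308 CPM in ASO libraries 1 to 5. In CTRL libraries 1 to 5 it was at 153, 138, 85.9, 126 and 105 CPM. The groups did not overlap, and the gap between the lowest ASO library and the highest CTRL library was small beside the spread within either group. The means of 214 ± 57.3 and 122 ± 26.4 CPM gave a log2 fold change of 0.82 ± 0.20 (SE, adjusted p = 0.010). Of its counts 95.6% lay on the last 500 bp of the canonical transcript (chr17:13238522-13239021, plus strand) and the rest on the 3′UTR of another transcript whose end is 19929 bp downstream. Treated as features of their own, in a fit chosen after seeing the data, both segments had a log2 fold change of 0.86 (adjusted p = 0.0060 and 0.036). With only the most distal counted segment of each gene, the value was 0.60 and the adjusted p 0.18. All 500 bp of the canonical segment are covered by other genomic matches of at least 60 bp and 95% identity, 257 in number, and all 500 bp of the other segment by 3 such matches. The listed parameters name no option that counts reads with several matches.

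Cat encodes catalase, the peroxisomal enzyme that splits hydrogen peroxide. Its level was 569, 572, 636, 794 and 492 CPM in ASO libraries 1 to 5 and 952, 714, 1196, 893 and 660 CPM in CTRL libraries 1 to 5. Of the ASO libraries 4 lay below all CTRL libraries, and the groups overlapped through ASO library 4. The means were 612 ± 114 and 883 ± 213 CPM, with a log2 fold change of −0.53 ± 0.19 (SE) and an adjusted p of 0.051. With DESeq2 the value was −0.49 at an adjusted p of 0.038, so the call for catalase depends on the method.

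Catalase was counted on a pair of separate segments, and their values differed. The upstream segment of 161 bp (transcript ENSMUST00000111168, chr2:103284940-103285100, minus strand) held 35.5% of the counts, and the distal one (ENSMUST00000028610, chr2:103284194-103284693) covers the last 500 bp of the canonical 3′UTR. In the segment fit, the upstream segment was at 166 ± 48.0 CPM in ASO and 377 ± 98.7 CPM in CTRL (log2 fold change −1.19, adjusted p = 0.0015), and 24.7% of all 10658 tested segments were lower. The distal segment was at 461 ± 108 and 500 ± 121 CPM (log2 fold change −0.12, adjusted p = 0.67). The ratio of upstream to distal counts was 0.443, 0.469, 0.181, 0.388 and 0.383 in ASO libraries 1 to 5 and 0.690, 0.616, 0.785, 0.813 and 0.886 in CTRL libraries 1 to 5, without overlap. The mean log2 ratio differed by −1.08 (exact two-sided permutation test, p = 0.0079, the smallest that 5 against 5 libraries allow), a test chosen after seeing the data. Such a difference was common in these libraries. Of 2635 genes with an upstream and a distal segment at least 500 bp apart and at least 50 counts on each, 45.2% had all ASO libraries below all CTRL libraries in this ratio, 1.29% had them above, and the median difference was −1.21. Whether RNA integrity or the use of polyadenylation sites has a part in the lower upstream segment was not tested.

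Txnrd1, the cytosolic selenoenzyme that reduces thioredoxin with NADPH, had the largest fold change of the 10 genes. It was at 48.3, 59.5, 15.2, 36.7 and 25.9 CPM in ASO libraries 1 to 5 and at 127, 124, 137, 177 and 162 CPM in CTRL libraries 1 to 5. The highest ASO library was below the lowest CTRL library by more than the spread of either group. The mean fell from 145 ± 23.1 CPM in CTRL to 37.1 ± 17.5 CPM in ASO, which is 3.91-fold lower (log2 fold change −1.97 ± 0.29 SE, adjusted p = 0.00067). The counts per library were 36 to 140 in ASO and 267 to 300 in CTRL. Of them 99.0% lay on 1 segment of 500 bp (ENSMUST00000219962, chr10:82731940-82732439, plus strand), inside the canonical 3′UTR and ending 1107 bp before its last base. The distal segments of Txnrd1 overlap each other, have 2 bases of their own and hold 18 counts, so the end of the long 3′UTR was not measured. Among the 3737 tested segments that end at least 1000 bp upstream of the most distal one of their gene, 53.7% were lower with the ASO and 5.43% higher. A lower value on such a segment was thus more common than not, and the part of segment position in the Txnrd1 value was not tested.

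**Figure D2:**
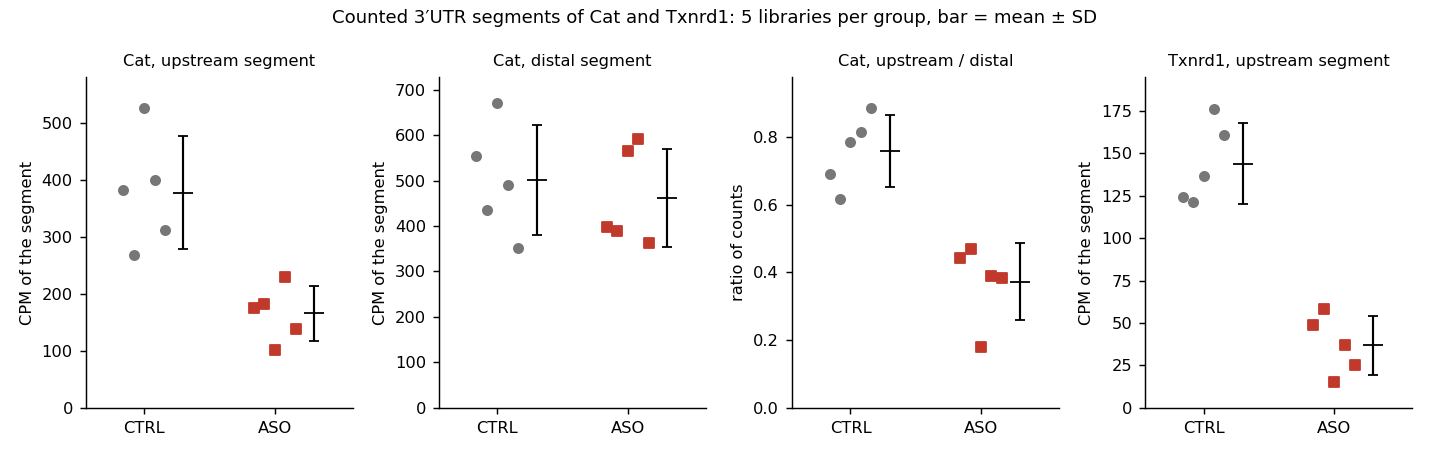
Upstream segment, distal segment and their ratio for Cat, and the upstream segment of Txnrd1, in 5 CTRL libraries (grey circles) and 5 ASO libraries (red squares), with means and SDs, as CPM or as a ratio of counts. The groups overlap for the distal segment of Cat and are apart in the other 3 panels.

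Mt1 and Mt2 lie next to each other on chromosome 8 and were highest in the same ASO libraries. Mt1 was at 52.6, 51.4, 186, 125 and 36.8 CPM in ASO libraries 1 to 5 and at 56.1, 43.4, 75.1, 43.1 and 75.2 CPM in CTRL libraries 1 to 5. ASO libraries 3 and 4 exceeded all CTRL libraries, and the other 3 ASO libraries lay in or under the CTRL range. The means were 90.3 ± 63.5 and 58.6 ± 16.03 CPM (log2 fold change 0.63 ± 0.40 SE, adjusted p = 0.26). Mt2 was at 23.2, 19.5, 95.1, 41.7 and 19.3 CPM in ASO libraries 1 to 5 and at 8.02, 14.5, 32.1, 22.4 and 42.7 CPM in CTRL libraries 1 to 5. Only ASO library 3 was above all CTRL libraries. Its means were 39.8 ± 32.3 and 23.9 ± 13.8 CPM (log2 fold change 0.75 ± 0.51 SE, adjusted p = 0.29). The fold changes of both genes were within 2 standard errors of 0, and without ASO library 3 they fell to 0.21 and 0.16.

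Over all 10 libraries the log2(CPM + 1) values of Mt1 and Mt2 had a Pearson r of 0.81 (permutation p = 0.0038) and a Spearman rho of 0.75 (permutation p = 0.017). This was the one relation tested. Without ASO libraries 3 and 4, the farthest from the median of Mt1, r was 0.49 (permutation p = 0.22, n = 8) and rho 0.52 (p = 0.20 by permutation). Leaving out libraries by their Mt1 level narrows the range of Mt1. The lower values therefore do not decide whether the relation holds in the other libraries. The tested genes whose deviations from the group means were most like those of the metallothionein mean were Ptpn12 (r = 0.91), Dynll1 (r = 0.89) and Stt3a (r = 0.89), over 10 libraries and as a description. The counts of Mt1 came from 368 bp (chr8:94906454-94906821, plus strand) in which the transcript ENSMUST00000034215 has 152 coding bases, 3 bases of UTR and 213 intronic bases. The annotation differs between transcripts. The canonical ENSMUST00000212291 has 365 coding bases and 3 bases of UTR there, and in ENSMUST00000211807, whose segment was counted, all 368 are UTR. The last 134 bp of ENSMUST00000034215 are shared between segments and held 0 counts. Mt2 was counted on 77 bp of its 3′UTR.

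**Figure D3:**
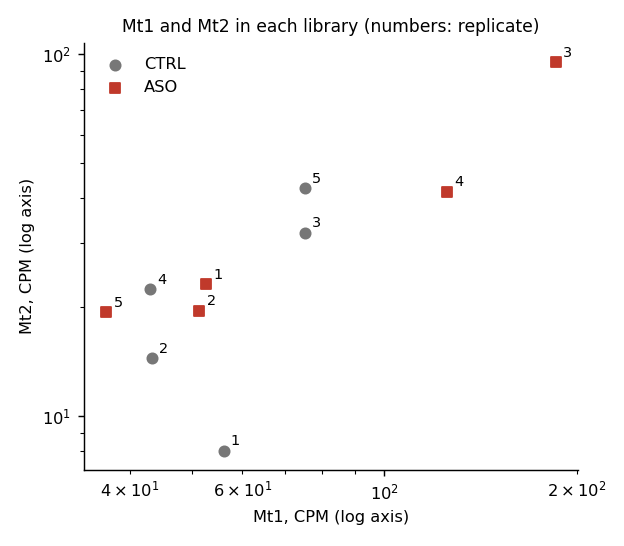
Mt2 against Mt1 in each library, in CPM on log axes, with CTRL as grey circles, ASO as red squares and the replicate number beside each point. ASO library 3 is the highest in both genes, at 186 and 95.1 CPM, and ASO library 4 is second in Mt1.

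Gpx1, the cytosolic selenium-dependent glutathione peroxidase, was at 54.1, 36.1, 45.2, 40.9 and 23.1 CPM in ASO libraries 1 to 5 and at 12.7, 20.5, 44.95, 19.5 and 10.7 CPM in CTRL libraries 1 to 5. All ASO libraries were above 4 of the 5 CTRL libraries, and CTRL library 3 was inside the ASO range. The means of 39.9 ± 11.5 and 21.7 ± 13.7 CPM gave a log2 fold change of 0.87 ± 0.35 (SE, adjusted p = 0.080). Without CTRL library 3 the value was 1.32 at an adjusted p of 0.0048, and with all libraries it passed with limma-voom (1.00, adjusted p = 0.044) and missed the threshold with DESeq2, so the call turns on that library and on the method. The gene was counted on 93 bp of its 3′UTR, with 19 to 112 counts per library.

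Hmox1, the inducible heme oxygenase, was at 29.9, 36.5, 30.0, 25.5 and 25.9 CPM in ASO libraries 1 to 5 and at 24.99, 33.1, 82.0, 32.5 and 35.4 CPM in CTRL libraries 1 to 5. CTRL library 3 was far above every other library, and the remaining 9 overlapped. The log2 fold change was −0.49 ± 0.29 (SE, adjusted p = 0.22), and −0.09 without CTRL library 3. That library was also the highest in Cat and, among the CTRL libraries, in Gpx1. It had the highest Adipoq (1612 CPM, against 2.83 to 322 in the other CTRL libraries and 18.9 to 451 in ASO), Plin1 (662 CPM) and Cd68 (57.8 CPM), which mark adipocytes and macrophages. For Cd68 the other CTRL libraries were at 5.19 to 17.7 CPM and the ASO libraries at 4.24 to 44.0 CPM. Its macrophage markers summed to 1918 CPM, against 305 to 726 in the other CTRL libraries and 83.0 to 644 in ASO. Of the 14 macrophage markers 3 are listed at 0 in all libraries, among them the defining marker Adgre1, whose segments have 4 bases of their own. The part of these cells, of the fibroblast markers and of the low fiber markers in the levels of Hmox1, Gpx1 and Cat was not tested.

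**Figure D4:**
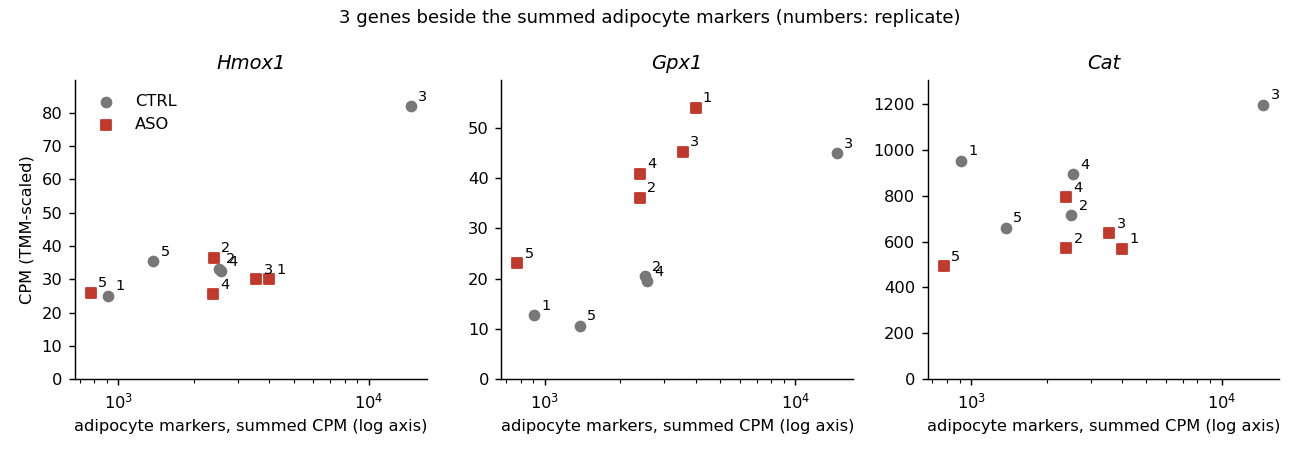
CPM of Hmox1, Gpx1 and Cat in each library against the summed CPM of 10 adipocyte markers on a log axis, with CTRL as grey circles, ASO as red squares and replicate numbers beside the points. CTRL library 3 lies far to the right at 14680 CPM and has the highest Hmox1 and Cat.

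Nqo1 and Gclc are standard reporters of NRF2 activity, a quinone reductase and the catalytic subunit of the ligase that starts glutathione synthesis. Nqo1 had the least spread of the 10 genes over the ASO libraries (coefficient of variation 9.71%), with 75.6 to 96.7 CPM in ASO and 75.6 to 110 CPM in CTRL. Its means were 88.5 ± 8.59 and 94.1 ± 14.2 CPM (log2 fold change −0.09 ± 0.14 SE, adjusted p = 0.66). Gclc, the lowest of the 10 at 24 to 59 counts per library, was at 11.04 to 24.9 CPM in ASO and 11.9 to 19.3 CPM in CTRL. Its log2 fold change was 0.15 ± 0.25 (SE, adjusted p = 0.68). The groups of both genes overlapped, and both were counted on 500 bp of the canonical 3′UTR. The Gclc segment ends at position 77701767 of chromosome 9, close to the annotated gene end at 77701770. The Nqo1 segment (chr8:108114857-108115356, minus strand) is not at the annotated gene end, which is position 108113835. The part of segment position in the Nqo1 value was not tested.

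Compared per 100 bases of their own, the levels in CTRL were highest in Sod1 (142 CPM per 100 bp) and Cat (134), whose coefficients of variation over libraries of 14.8% and 24.1% exceed the distance between them. Mt2 (31.1), Txnrd1 (29.0), Gpx1 (23.3), Nqo1 (18.8), Mt1 (15.9) and Sod2 (12.2) followed, and Hmox1 (8.32) and Gclc (3.24) were lowest. With the ASO, Txnrd1 was at 7.40 and Sod1 at 263 CPM per 100 bp. Sod2 was divided by 1000 bases although 95.6% of its counts lay on 500 of them. Mt1 was divided by 368 bases, of which 213 are intronic in ENSMUST00000034215. The values of Sod1, Mt2 and Gpx1 rest on only 72, 77 and 93 bases. Coverage is also uneven along 3′UTRs, so the order of the genes is not resolved by these values.

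**Figure D5:**
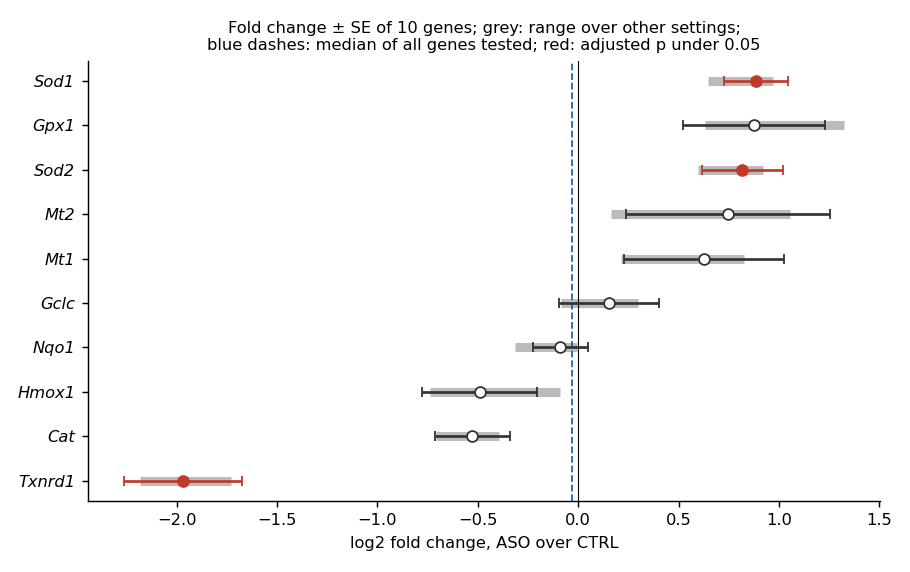
Log2 fold change (ASO over CTRL) of each of the 10 genes with its SE as whiskers, filled red where the adjusted p was under 0.05. Grey bars give the range over the settings fixed for each gene, without those added after seeing the data. The blue dashed line is the median of all tested genes. Sod1, Sod2 and Txnrd1 are filled, and the grey range of Gclc alone crosses 0.

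The genes that regulate NRF2 were read from a list of 17, of which 13 were tested, 1 higher and 4 lower with the ASO (38.5% called, against 29.2% overall), and the list median was 0.05 against −0.03 on the log2 scale. Nfe2l2, which encodes NRF2, was at 33.3, 68.8, 37.6, 84.3 and 37.7 CPM in ASO libraries 1 to 5 and at 91.0, 102, 85.0, 94.4 and 87.6 CPM in CTRL libraries 1 to 5. No ASO library reached the CTRL range, although ASO library 4 came close to it. The log2 fold change of −0.81 (adjusted p = 0.025) came from 1 counted segment, less than 1000 bp upstream of the gene's most distal segment. This distance, here and for the genes below, is taken between segments and not to the annotated end of the transcript. Keap1, which captures NRF2, was at 126 ± 23.5 and 105 ± 9.41 CPM and did not pass the threshold (log2 fold change 0.27, adjusted p = 0.18). Cul3, the scaffold of the ligase that ubiquitinates NRF2, fell by 1.13 on the log2 scale (adjusted p = 0.0021), and 77.2% of its counts came from segments at least 1000 bp upstream. Nfe2l1, a related factor, and Btrc, a subunit of another ligase that takes NRF2, had log2 fold changes of −0.54 and −0.93 (adjusted p = 0.046 and 0.031). The coactivator gene Ep300 was higher (log2 fold change 0.70, adjusted p = 0.035).

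Of 20 tested genes for metal handling 1 was higher and 2 lower, and 17 did not pass the threshold (3 of 20 called, against 29.2% of all genes), with a median of −0.08 against −0.03. Slc39a1, a zinc importer, had a log2 fold change of 0.62 (adjusted p = 0.012), and Slc30a4, a zinc transporter of vesicles, and Ireb2, an iron regulatory protein, had −0.88 and −0.48 (adjusted p = 0.0073 and 0.025). Segments at least 1000 bp upstream gave 20.9% of the Slc30a4 counts. Mtf1, the factor that binds metal response elements, was at 24.6 ± 3.74 against 15.8 ± 4.92 CPM (log2 fold change 0.63, adjusted p = 0.055). A list of 12 tested glucocorticoid-responsive genes, which includes Mt1 and Mt2, had 0 higher and 2 lower genes (16.7% called, median 0.01). These were the receptor gene Nr3c1 (log2 fold change −1.92, adjusted p = 0.00014) and Fkbp5 (−1.09, adjusted p = 0.011). Of their counts 98.8% and 52.0% came from segments at least 1000 bp upstream.

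Of the 9 other superoxide and peroxide enzymes tested, only Prdx5, a peroxiredoxin of mitochondria, peroxisomes and cytosol, passed (11.1% called, against 29.2% of all genes), with 548 ± 97.8 against 390 ± 63.4 CPM (log2 fold change 0.49, adjusted p = 0.037). Gpx4 is listed at 0, and its segments have 0 bases of their own. The thioredoxin list had 1 higher and 2 lower genes of 10, or 30.0% against the 29.2% of all genes, with a median of 0.07. Srxn1, which restores overoxidized peroxiredoxins, was at 129 ± 33.3 against 70.8 ± 9.23 CPM without overlap (log2 fold change 0.86, adjusted p = 0.0042). Msra, a methionine sulfoxide reductase, and Txnip, which binds thioredoxin, had −1.36 and −0.61 (adjusted p = 0.016 and 0.040).

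In the glutathione list of 24 tested genes 2 were higher and 4 lower, which as a share is near the background of 29.2%. The transferase Gstm1 was at 115 ± 23.8 against 64.2 ± 4.14 CPM without overlap (log2 fold change 0.84, adjusted p = 0.0017), and Gstm2 had 0.66 (adjusted p = 0.020). Whether other genes of the Gstm family share reads with these 2 was not tested. Lower were Chac2, which degrades glutathione (−1.16, adjusted p = 0.0015), the glutaredoxins Glrx (−1.06, adjusted p = 0.00995) and Glrx2 (−0.56, adjusted p = 0.046), and Mgst1 (−1.45, adjusted p = 0.026). Segments at least 1000 bp upstream gave 31.4% of the Glrx2 counts. Of 15 tested genes for selenoproteins and their synthesis, to which group Gpx1 and Txnrd1 also belong by function, 5 were higher and 1 lower, which is 40.0% called against 29.2% of all genes, of which 11.7% were higher. The list median was 0.17. The most abundant, Selenow, was at 5843 ± 1361 against 3318 ± 577 CPM (log2 fold change 0.82, adjusted p = 0.0099). Selenok, Secisbp2, which reads the selenocysteine element, and Selenoo had log2 fold changes of 0.67, 0.61 and 0.53 (adjusted p = 0.0096, 0.011 and 0.011), and Selenof had −1.07 (adjusted p = 0.0030) with 72.5% of its counts far upstream.

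Of 10 tested genes for NADPH supply, with a median of −0.53, 0 were higher and 2 lower (2 of 10, against 17.5% of all genes lower). These were Aldh1l2 (−1.10, adjusted p = 0.0082) and Nadk2 (−0.74, adjusted p = 0.022), both enzymes of the mitochondrial matrix, with 26.7% and 99.0% of their counts from segments at least 1000 bp upstream. Of 7 tested oxidant sources, with a median of −0.14, 0 were higher and 1 lower (14.3%, against the same 17.5%), the monoamine oxidase Maob (123 ± 40.1 against 247 ± 28.1 CPM, log2 fold change −1.004, adjusted p = 0.0036). Segments at least 1000 bp upstream gave 21.2% of the Maob counts. The lists were described by their counts and medians only.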

How the data were processed

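GAS of DIO mice was sequenced in 5 ASO and 5 CTRL libraries (Illumina stranded mRNA kit). The authors deposited counts, not normalized, for which fastp trimmed the reads and STAR aligned them to GRCm39. Fragments were counted with featureCounts on the final 500 bp of annotated 3′UTRs. The methods name Gencode M25, a release on the earlier build GRCm38, so the annotation that was counted is not certain. Here 52361 of 52423 segments were assigned to genes with GENCODE M39, segments of a gene were summed, and the 62 others (0.0197% of the counts) stayed as features of their own. A further 4 columns with values per sample were left out.

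Counts were tested with edgeR 4.0.16 (R 4.3.3, TMM, filter on low counts by group, quasi-likelihood, Benjamini-Hochberg over 7819 genes). SEs are the absolute log2 fold change divided by the square root of the F statistic. Genes named are the 10 chosen ones, up to 4 per direction of each list by p, and fixed markers; Keap1, Mtf1, Scaf4 and Gpx4 were added after their values were seen. The 10 genes and the lists were chosen with earlier results of these data known. Alternatives were DESeq2 1.42.0, limma-voom (limma 3.58.1), other scalings and filters, equal depth, the most distal segment, a block for the replicate number, and each library left out in turn. Segment fits, the catalase ratio, a setting with only the segment of most counts and leaving out both libraries numbered 3 were added after seeing the data. On simulated data with known changes in this comparison, edgeR recovered 72 of 98 genes changed by 1 on the log2 scale and 93 of 94 changed by 2, with 2 false calls among 7708 genes. The simulation assumed a dispersion and changed few genes, equally many in each direction, whereas 29.2% of genes were called in the real libraries. It therefore gives no error rate for these libraries. Genomic copies of the counted segments of the 10 genes were sought with blastn 2.17.0. The library totals limit mainly the genes with few counts.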

Additional observations from a re-analysis of the deposited data

Results flagged for a closer look

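In 2 of the 20 groups of 5 libraries (10 genes, 2 groups each), a single library lay farther from the others than Dixon's test allows, and chance gives about 1 in 20. Both were CTRL library 3, with Hmox1 at 82.0 CPM, where the gap to the next library was 0.818 of the whole range, and Gpx1 at 44.95 CPM, where it was 0.713 (critical value 0.71). This is the library whose adipocyte markers summed to 14680 CPM, and the part of that in the values was not tested.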

How the results depend on the processing

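Over 22 settings fixed for each gene, Sod1 was called in 22, Sod2 in 21, Txnrd1 in all 21 that give it a value, Cat in 6, Gpx1 in 3 and Mt1, Mt2, Nqo1, Hmox1 and Gclc in 0. With total counts only, the median of all genes moved from −0.03 to −0.21, 528 genes were higher, 2 of the 10 genes were lower, Cat had −0.71 and Gclc −0.025. The share of higher calls was 40.2%, 22.5% with total counts and 51.1% with the upper quartile. With at least 10 counts in every library 2 were lower and Cat had −0.56, and with DESeq2 2 were lower and Cat had −0.49. Gpx1 passed with limma-voom at 1.00. Deviations from the group means had correlations of −0.43 to 0.16 between same-numbered libraries. The labels state no pairing, and whether same-numbered libraries shared a batch was not tested. With the replicate number as a block 663 genes were higher and 1175 lower, Gpx1 passed at 0.98, no other of the 10 calls changed, and no ASO library correlated best with its own number. With the most distal counted segment 388 genes were higher and 604 lower, of the 10 genes 1 and 0, Gclc had −0.085 and Sod2 0.60, and Txnrd1 had no value. This setting holds fewer counts, and the cause of the lower numbers of calls was not tested. The 7 genes on 1 counted segment keep their own counts in it, so what differs for them is the scaling and the fit. Their log2 fold changes were all lower than in the main setting, for instance 0.65 for Sod1, 0.36 for Mt1 and 0.63 for Gpx1. Without both libraries numbered 3, 576 genes were higher, Gclc had −0.088 and Gpx1 passed at 1.28. With only the segment of most counts of each gene, the same 3 of the 10 genes were called. Cat had −0.28 there (edgeR, adjusted p = 0.31). The correlation of Mt1 with Mt2 fell to 0.49 without the 2 farthest libraries.

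Leaving out each library in turn gave 691 to 1021 genes higher and 1126 to 1370 lower, of the 10 genes 2 to 3 higher and 1 to 2 lower. The log2 fold changes ranged from 0.21 to 0.83 for Mt1, 0.16 to 1.05 for Mt2, −0.16 to −0.02 for Nqo1, −0.63 to −0.09 for Hmox1, 0.04 to 0.30 for Gclc, 0.81 to 0.96 for Sod1, 0.66 to 0.92 for Sod2, −2.18 to −1.73 for Txnrd1, and −1.19 to −0.84 for the catalase ratio. Cat ranged from −0.62 to −0.40 and passed without ASO replicate 4 (−0.62), CTRL replicate 2 (−0.59) or CTRL replicate 5 (−0.62). Gpx1 ranged from 0.70 to 1.32 and passed without CTRL replicate 3 (1.32). Library totals differ between the groups, and at equal depth the same 3 genes were called.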
